A study of Mus musculus with 2 samples.

Results

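The regions described here are the H3K27ac peaks of unstimulated mouse macrophages that lie farthest from genes. H3K27ac, an acetylation of histone H3, was mapped by chromatin immunoprecipitation and sequencing (ChIP-seq) in macrophages grown from bone marrow of the C57BL/6J strain, with no stimulation, no genetic change named in the labels and no second condition. The single group held 2 biological replicates, which are separate biosamples with the same donor entry, so spread between animals may not be part of their differences; no age or sex is given. The labels give a starting quantity of 10 ng of nucleic acid for each library and a size range of 350 to 480 without its unit. A peak was a member when its midpoint lay outside every protein-coding gene and over 50 kb from the nearest start of a protein-coding transcript of GENCODE M21, on GRCm38 (mm10). Of the 32877 peaks of the replicated list, which the authors made from both libraries together, 2977 met this rule, or 9.05% (95% Wilson interval 8.75 to 9.37%). They are called far intergenic peaks below. The rule used position alone, so the height, width, replicate support and sequence of the peaks were not part of the choice. It does limit their neighbours, as no protein-coding start lies within 50 kb of a member's midpoint.

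H3K27ac is deposited by the acetyltransferases p300 and CBP at active promoters and enhancers. Enhancers are stretches of DNA bound by transcription factors that raise transcription of genes on the same chromosome, in some cases across long distances and past other genes. In macrophages, PU.1 (encoded by Spi1) is the factor that opens most of the enhancers of the lineage, together with C/EBP, AP-1, RUNX and IRF factors, and acetylated nucleosomes flank the open site where these factors bind. A peak list does not say which gene a region acts on, so the genes below are named as neighbours and not as targets.

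Members are named by the protein-coding genes on their left and right, in the order of the chromosome. To show what such regions look like, the 300 bases at the midpoint of the 3 members with the highest fold, and of the highest member in each of the 3 gene-to-gene intervals with the most members, are printed 5′ to 3′ on the plus strand of mm10 (sequence from RefSeq, GRCm38.p6). Capitals mark matches, on either strand, to any of 9 short DNA words searched for below.
Ctnna3/Reep3, chr10:66851653-66851952: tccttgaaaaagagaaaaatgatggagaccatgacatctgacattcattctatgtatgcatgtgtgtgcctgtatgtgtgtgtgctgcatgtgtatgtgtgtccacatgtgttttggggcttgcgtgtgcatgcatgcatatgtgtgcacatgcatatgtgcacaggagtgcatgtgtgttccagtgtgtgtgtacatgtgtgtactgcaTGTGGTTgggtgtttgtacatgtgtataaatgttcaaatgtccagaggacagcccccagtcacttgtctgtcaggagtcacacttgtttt
Ccnd1/Tpcn2, chr7:145111915-145112214: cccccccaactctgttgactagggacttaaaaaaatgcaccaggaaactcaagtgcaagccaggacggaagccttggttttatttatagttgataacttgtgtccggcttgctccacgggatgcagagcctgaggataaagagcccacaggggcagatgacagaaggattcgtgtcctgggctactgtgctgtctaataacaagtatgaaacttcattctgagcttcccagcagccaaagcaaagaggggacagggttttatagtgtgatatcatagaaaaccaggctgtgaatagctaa
Bcl2l11/Spdye4c, chr2:128336996-128337295: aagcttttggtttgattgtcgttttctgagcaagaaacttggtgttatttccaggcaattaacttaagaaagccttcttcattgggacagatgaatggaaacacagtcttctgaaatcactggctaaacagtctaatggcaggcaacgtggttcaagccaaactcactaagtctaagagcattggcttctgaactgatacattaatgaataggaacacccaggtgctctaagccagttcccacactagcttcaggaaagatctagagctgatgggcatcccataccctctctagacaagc
Myc/Gsdmc, chr15:62057036-62057335: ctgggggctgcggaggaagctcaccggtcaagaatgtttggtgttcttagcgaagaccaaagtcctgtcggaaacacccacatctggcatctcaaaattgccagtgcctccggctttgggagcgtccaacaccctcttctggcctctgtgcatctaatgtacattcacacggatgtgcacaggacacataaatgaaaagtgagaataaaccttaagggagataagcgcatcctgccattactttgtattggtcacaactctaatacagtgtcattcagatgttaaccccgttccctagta
Nmbr/Cited2, chr10:16651669-16651968: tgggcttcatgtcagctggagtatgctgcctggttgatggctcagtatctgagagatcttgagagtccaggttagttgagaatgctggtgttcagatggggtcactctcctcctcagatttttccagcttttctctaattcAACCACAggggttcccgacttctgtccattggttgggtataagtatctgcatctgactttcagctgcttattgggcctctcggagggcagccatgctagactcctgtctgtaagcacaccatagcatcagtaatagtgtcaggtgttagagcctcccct
Zeb2/Acvr2a, chr2:45246073-45246372: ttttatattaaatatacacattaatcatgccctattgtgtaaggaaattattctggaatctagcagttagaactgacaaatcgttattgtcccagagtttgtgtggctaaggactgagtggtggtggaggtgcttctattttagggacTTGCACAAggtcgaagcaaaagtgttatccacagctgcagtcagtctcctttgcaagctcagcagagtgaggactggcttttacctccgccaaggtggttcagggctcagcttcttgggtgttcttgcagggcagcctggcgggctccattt

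The windows of Ctnna3/Reep3 and Nmbr/Cited2 each hold 1 match to the RUNX word and that of Zeb2/Acvr2a holds 1 to the C/EBP word, while the other 3 hold no match to any of the words. A further 3 members are shown because of a pattern reported below, in which matches to the PU.1 word (GAGGAAGT, or ACTTCCTC on the other strand) gather 200 to 300 bases from the summit, the position of the highest signal in a peak. They are the 3 members of highest fold with such a match, chosen after the pattern was seen, and each window runs 300 bases from the summit to one side. In the first pair the summit is the last base printed, and in Tmco5/Spred1 it is the first.
Irf2bp2/Tomm20, chr8:126881327-126881626: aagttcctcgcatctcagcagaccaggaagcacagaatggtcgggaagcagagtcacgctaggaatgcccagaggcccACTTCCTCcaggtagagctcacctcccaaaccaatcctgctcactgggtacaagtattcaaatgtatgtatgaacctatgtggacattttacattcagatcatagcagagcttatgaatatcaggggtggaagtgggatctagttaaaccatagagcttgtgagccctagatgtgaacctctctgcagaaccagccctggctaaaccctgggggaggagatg
Map3k1/Ankrd55, chr13:111936187-111936486: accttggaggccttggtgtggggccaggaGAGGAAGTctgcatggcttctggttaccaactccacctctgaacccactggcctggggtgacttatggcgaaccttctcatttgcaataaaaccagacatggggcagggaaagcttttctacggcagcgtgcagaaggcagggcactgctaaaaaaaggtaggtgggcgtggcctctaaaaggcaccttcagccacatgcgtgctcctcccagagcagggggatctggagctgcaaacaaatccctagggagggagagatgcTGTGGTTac
Tmco5/Spred1, chr2:117018942-117019241: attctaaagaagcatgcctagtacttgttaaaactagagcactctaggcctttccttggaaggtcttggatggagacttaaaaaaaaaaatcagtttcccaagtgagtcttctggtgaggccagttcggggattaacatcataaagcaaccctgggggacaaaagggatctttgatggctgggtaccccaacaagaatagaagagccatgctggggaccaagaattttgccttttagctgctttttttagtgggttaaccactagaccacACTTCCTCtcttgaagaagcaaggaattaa

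The fold of a peak is the authors' ratio of signal in the peak over control or background, and it is used here to rank or describe peaks within 1 list. The folds of a replicate are those of the highest peak of that replicate's own list that overlapped the member. The mark was averaged over all cells of a culture, so a mark on fewer cells and less of it per cell cannot be told apart. The label of the cells was checked at promoters. All 8 of 8 macrophage marker genes, Spi1, Csf1r, Adgre1, Itgam, Cd68, Lyz2, Mertk and Fcgr1, had a replicated peak within 1 kb of a start. For each of the T cell, B cell, neutrophil granule, fibroblast and epithelial lists it was 0 of 4. In the wider list of 42 genes of other lineages used below, 4 had such a peak. The authors' own lists held 29543 peaks in replicate 1 and 29345 in replicate 2. No source used here gives the read depth, so intervals cover counting error only, and a region without a peak is one below the authors' threshold.

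Far intergenic peaks were thinly spread and became rarer with distance from genes. The bases that meet the rule make up 40.6% of the assembled genome, 1074.08 of 2647.52 Mb, and held 9.05% of the peaks. Their density was 2.77 peaks per Mb there, against 19.0 per Mb for all other peaks in the remaining genome, which is 6.86 times as many. Within the far intergenic bases the density fell with distance from the nearest start. It was 6.48 per Mb at 50 to 100 kb, 3.77 at 100 to 200 kb, 1.46 at 200 to 500 kb, 0.416 at 500 to 1000 kb and 0.287 beyond 1000 kb. These bins held 1428, 946, 506, 75 and 22 members. The median member lay 103 kb from the nearest start, with quartiles of 70.9 and 177 kb. By chromosome the density ran from 1.97 per Mb on chromosome 9 to 5.93 on chromosome 10 among the autosomes, and was 1.39 on the X chromosome. The Y chromosome, with 71.84 Mb of the bases that meet the rule, held no member and only 3 peaks of the whole list. Its bases are counted in the 1074.08 Mb. How well reads map there and to the other bases that meet the rule was not tested.

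The most remote member lay 1804.66 kb from any protein-coding start, between Cntnap5b and Cdh20, a gene of the neurexin-related family and a cadherin (chr1:101901945-101902899). Its fold was 8.35, with 7.74 in replicate 1 and 7.71 in replicate 2, so both libraries saw it at close to the same height. The next 4 in distance all lay together between Pabpc4l and the protocadherin gene Pcdh18 on chromosome 3, 1632.82 to 1653.16 kb from a start, with folds of 3.06 to 4.42. None of those 4 was overlapped by a peak of both replicates.

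**Figure D1:**
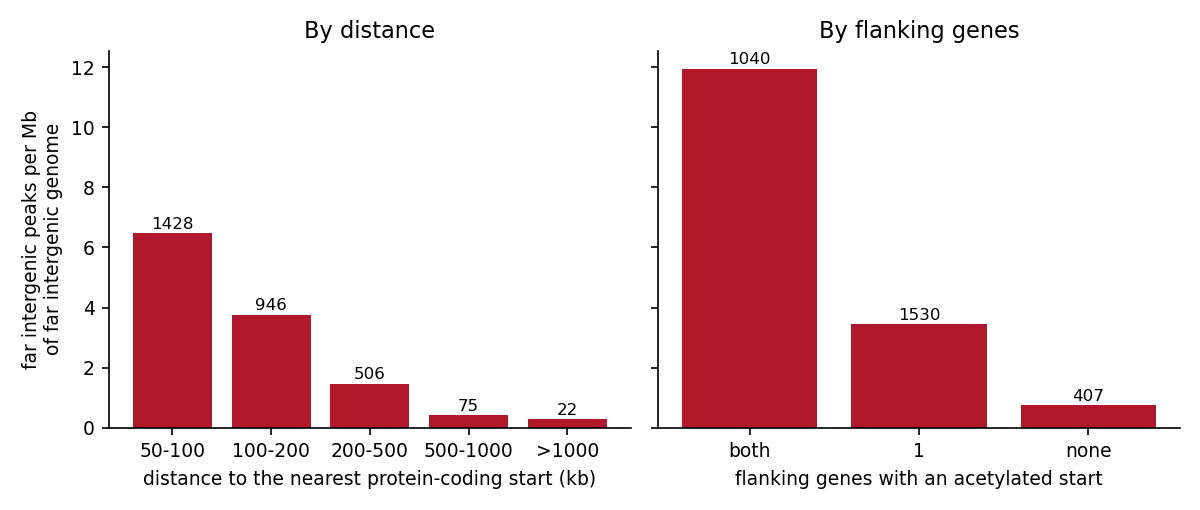
Far intergenic peaks per Mb of the genome that meets the rule, by distance from the nearest protein-coding start (left) and by how many of the flanking protein-coding genes have an acetylated start (right); the number above each bar is the count of members. Density falls at each step of distance, and is 11.9 per Mb between genes that are both acetylated, 3.44 where 1 is and 0.751 where neither is.

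Far intergenic peaks were somewhat lower in rank than the list as a whole, and of about its median width. Their median fold was 5.57 (quartiles 3.63 and 11.04), against 6.03 for intergenic peaks 2.5 to 50 kb from a start, 5.56 for peaks inside genes, 7.26 for peaks within 1 kb of a start and 6.31 for the whole list. In the upper 50% of the list by fold stood 44.7% of members (43.0 to 46.5%), against 48.3% of the intergenic peaks nearer to genes (47.0 to 49.6%). With the list cut by fold into 10 bins of equal size, the highest bin held 282 members, 9.47% of them, and the lowest held 371, 12.5% of them. The median width was 1043 bp (quartiles 565 and 1788), against 1010 bp for the list. It was below the 1138 bp of the intergenic peaks nearer to genes and the 1185 bp of peaks inside genes. It was above the 822 bp of promoter peaks. At 5 kb or wider were 74 members, or 2.49%, against a background of 2.55% of the whole list, so wide peaks were no more frequent among members than in the list. The share was 3.81% for peaks inside genes and 1.00% for promoter peaks.

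Both replicates supported the stronger members almost without exception, and few of the weakest. The fold in the joint list and the calls of each replicate rest on the same libraries, so support at high fold is partly built in. A peak of both replicates overlapped 2106 of 2977 members, 70.7% (69.1 to 72.3%), against 74.5% of the whole list. Another 207 members were overlapped by replicate 1 alone, 232 by replicate 2 alone and 432 (14.5%) by neither. The last of these came from the joint list only and were low and narrow, with folds of 2.97 at the median and 4.73 at most, and widths of 435.5 bp at the median. In each of the 5 highest bins of the list by fold, 100% of the members there had both replicates, 1332 in all. The share was 98.6% in bin 6, 85.3% in bin 7, 46.8% in bin 8, 18.1% in bin 9 and 3.77% in bin 10. The whole list had 95.7%, 79.8%, 46.8%, 18.4% and 4.23% in the same bins. Within a bin, the share of members was close to that of the list, and in bins 6 and 7 it was above it.

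**Figure D2:**
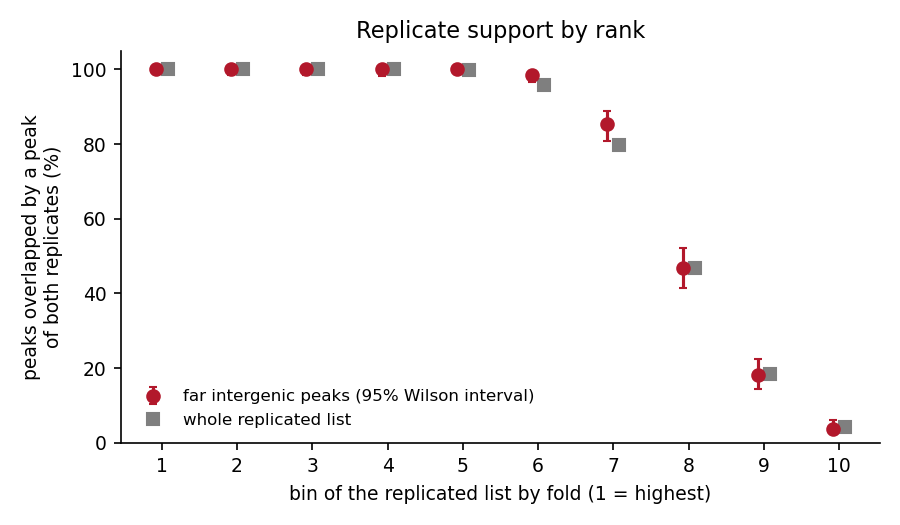
Percent of peaks that a peak of both replicates overlaps, by bin of equal size of the replicated list from highest (1) to lowest (10) fold, for far intergenic peaks (circles, bars are 95% Wilson intervals) and the whole list (squares). Both are at or near 100% in the upper 5 bins and fall together below them, to 3.77% of members and 4.23% of the list.

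The folds of the 2 replicates ran closely together over the 2106 members that both support. The median was 7.74 in replicate 1 and 7.71 in replicate 2, and 2029 members (96.3%) had folds within 1.5 times of each other. Spearman's rho of the folds across these members was 0.940, given as a description: members are not independent, and both libraries share a donor entry and a method. Each replicate's own list gave 2590 far intergenic peaks in replicate 1 and 2528 in replicate 2, a mean of 2559 ± 43.8 (SD, n = 2). The other replicate's list overlapped 88.9% of the far intergenic peaks of replicate 1 and 88.3% of those of replicate 2, against 91.3% and 88.6% of the whole lists.

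Most members had another member within 10 kb. When members whose edges lay within 10 kb were joined, the 2977 peaks formed 1751 groups, of which 678 were clusters of 2 or more. The clusters held 1904 members, 64.0% (62.2 to 65.7%), beside 61.1% for intergenic peaks 2.5 to 50 kb from a start and 66.1% for peaks inside genes when each class was joined in the same way. Counting peaks of any class, 65.9% of members had another peak within 10 kb. The share was 75.7% for intergenic peaks 2.5 to 50 kb from a start and 78.2% for peaks inside genes. For promoter peaks it was 76.6%, and for the whole list 76.4%. These shares differ in part by construction: the rule leaves members no promoter peak within 10 kb, while peaks of the other classes can have one. How much of the gap this makes up was not tested. Clusters were mostly small: 407 had 2 members, 150 had 3 and 62 had 5 or more, with a median span of 6.82 kb. Clustered members had a median fold of 5.75, against 5.35 for the 1073 that stood alone, and 72.1% against 68.4% were supported by both replicates. A split of 1 broad region into several called peaks and several separate regions cannot be told apart from a peak list.

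The 5 longest clusters stood between Haao and Zfp36l2, Irf2bp2 and Tomm20, Cd44 and Pdhx, Olfr1324 and Stk26, and Tpra1 and Plxna1. The longest spanned 73.13 kb (chr17:84056107-84129235) with 15 members that cover 54.9% of it, and its last midpoint lay 65.5 kb from the nearest start of Zfp36l2, whose product binds AU-rich messenger RNAs and speeds their decay. Its highest member had a fold of 43.69, with 38.89 in replicate 1 and 41.73 in replicate 2, and a width of 13512 bp. The cluster between Irf2bp2, a co-repressor that binds IRF2, and Tomm20, a receptor of mitochondrial protein import, spanned 66.61 kb (chr8:126824206-126890816). It had the densest cover of the 5, with 11 members over 73.9% of its length and a median fold of 25.70.

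The third, of 44.28 kb, had its first midpoint 66.3 kb from the nearest start of Cd44, the hyaluronan receptor, and held 7 members, all with both replicates and a highest fold of 26.49. The cluster on the X chromosome, 43.10 kb with 13 members, had no acetylated protein-coding start on either side and lay over Firre, a noncoding RNA known for its part in nuclear organisation. Its highest fold was 12.71. The fifth, of 42.02 kb with 9 members, had its last midpoint 61.1 kb from the nearest start of Plxna1, a receptor for semaphorins, and its highest fold was 43.88.

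A small number of gene-to-gene intervals held much of the set. Of 3778 intervals between neighbouring protein-coding genes that contain any base meeting the rule, 827 (21.9%) held a member. Of these, 284 held 1, 358 held 2 to 4, and 185 held 5 or more, with 58.5% of all members. The 66 intervals with 10 or more held 33.2% of members, and 136 intervals together held 50% of them. Lengths of intervals differ widely, so the density within each of the 10 fullest is given with its count. A gene is called acetylated at a start when a replicated peak lies within 1 kb of any of its protein-coding starts, and the fold given for a start is that of the highest such peak.

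**Figure D3:**
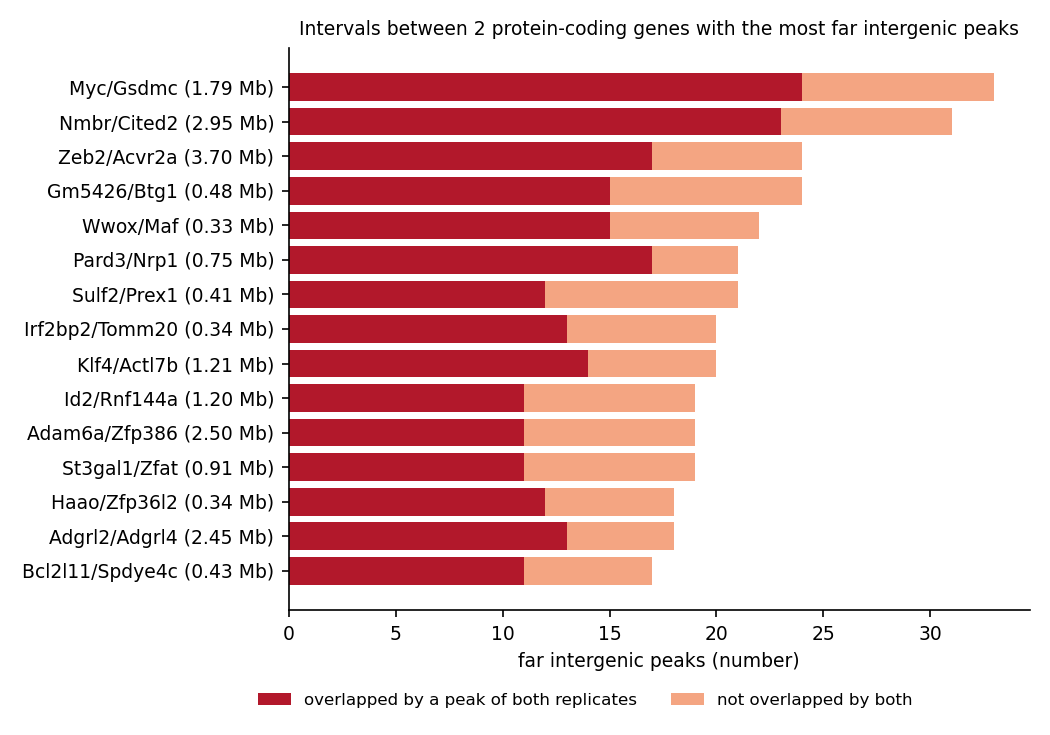
The 15 intervals between neighbouring protein-coding genes that hold the most far intergenic peaks, with the length of the interval; bars count the members, split by whether a peak of both replicates overlaps them (dark) or not (light). Counts run from 33 between Myc and Gsdmc to 17 between Bcl2l11 and Spdye4c.

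The interval with the most members lay between Myc, the growth-promoting transcription factor, and the gasdermin gene Gsdmc. It held 33 members over 1785.6 kb, or 18.48 per Mb, and 24 of them had both replicates. They fell into 2 sets with 1098.3 kb between them that held no member. The 19 nearer to Myc ran from 51.7 to 414.0 kb from its start, and 15 of them lay over Pvt1, the noncoding gene next to Myc. The highest, in Pvt1 at chr15:62055145-62059227, had a fold of 32.42, with 30.38 in replicate 1 and 31.01 in replicate 2. The other 14 ran from 1512.2 to 1733.6 kb from Myc, which is 87.7 to 309.1 kb from Gsdmc, with 9 of them within 200 kb of Gsdmc and 13 of them over the lincRNA gene Gm41335, with a highest fold of 29.59. The start of Myc itself carried a peak with a fold of 11.56, below the highest member of either set, and no start of Gsdmc carried one.

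Between Nmbr, the neuromedin B receptor gene, and Cited2, whose product binds p300 and CBP, 31 members lay in 2952.4 kb (10.50 per Mb). All but 3 were on the Cited2 side of a stretch of 1197.3 kb that held none, and 10 were within 200 kb of Cited2. The highest of them stood 1071.4 kb from Cited2 (chr10:16649385-16654253) with a fold of 31.56, and its replicate folds were 29.60 and 30.80. The promoter of Cited2 had a fold of 33.0 and that of Nmbr 6.1.

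The interval of 3696.7 kb between Zeb2 and Acvr2a held 24 members (6.49 per Mb), 17 with both replicates. Zeb2 encodes a zinc-finger repressor needed for macrophage identity, and Acvr2a encodes an activin receptor. Within 200 kb of Zeb2 were 10 members, and 5 of them had folds of 20.74 to 40.17, the highest at 128.8 kb (36.82 and 37.54 in replicates 1 and 2). A further group stood 1242.6 to 1325.5 kb from Zeb2, with folds of up to 35.81, and the 5 nearest to Acvr2a reached 5.29 at most. The start of Zeb2 had a fold of 41.78, and Acvr2a had no peak at a start.

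Maf and Irf2bp2 had members packed into short intervals. Between Wwox and Maf, 22 members lay in 330.2 kb (66.62 per Mb). Maf encodes a transcription factor of mature and resident macrophages, and 13 members were within 200 kb of its start. The nearest was also the highest, 56.8 kb away with a fold of 36.27, and its folds were 35.28 in replicate 1 and 32.34 in replicate 2. Maf's own start had a fold of 33.86, and Wwox had no peak at a start. Between Irf2bp2 and Tomm20, 20 members lay in 336.7 kb (59.40 per Mb), 9 of them with a fold of 20 or more. Of these members 16 were within 200 kb of Tomm20 and 8 within 200 kb of Irf2bp2, and the highest was 77.1 kb from Tomm20 and 274.8 kb from Irf2bp2. The peaks at the starts had folds of 39.18 at Irf2bp2 and 11.41 at Tomm20.

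Around Klf4 and Id2, most members lay nearer to the acetylated gene. Klf4, a zinc-finger factor of monocyte differentiation, had 20 members between it and the testis gene Actl7b, in 1207.5 kb (16.56 per Mb). Of these, 15 lay 91.0 to 292.1 kb from the start of Klf4. None of the 20 reached a fold of 20, the highest was 15.68, and 14 had both replicates. Id2, an inhibitor of basic helix-loop-helix factors, had 19 members between it and Rnf144a, in 1203.8 kb (15.78 per Mb). Of these, 14 were within 200 kb of Id2 and none within 200 kb of a start of Rnf144a. The count of 19 depended on the list used: it was 15 in the list of replicate 1 alone and 12 in that of replicate 2 alone. The highest had a fold of 40.35 at 92.9 kb from Id2, with 36.65 and 38.21 in replicates 1 and 2.

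The other 3 of the 10 intervals did not all follow that order. Between Gm5426 and Btg1, an antiproliferative gene, 24 members lay in 480.1 kb (49.99 per Mb). Of these, 12 were within 200 kb of Gm5426 and 5 within 200 kb of Btg1. The highest, with a fold of 26.99, was 196.3 kb from Gm5426, which had no peak at a start, and 284.2 kb from Btg1, which had one. Nrp1, a neuropilin co-receptor, had 21 between it and the polarity gene Pard3, in 746.3 kb (28.14 per Mb). On the Nrp1 side of the largest gap lay 18 of them, with a highest fold of 27.63 in a peak 8109 bp wide. Prex1, an activator of Rac in neutrophils and macrophages, and the sulfatase gene Sulf2 had 21 between them in 410.7 kb (51.13 per Mb). Within 200 kb of each gene were 10, and the highest fold was 26.89. Over these 10 intervals, Gm5426, Wwox, Gsdmc, Acvr2a, Pard3, Actl7b and Rnf144a had no peak at a start, and the gene on the other side had one in each case.

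**Figure D4:**
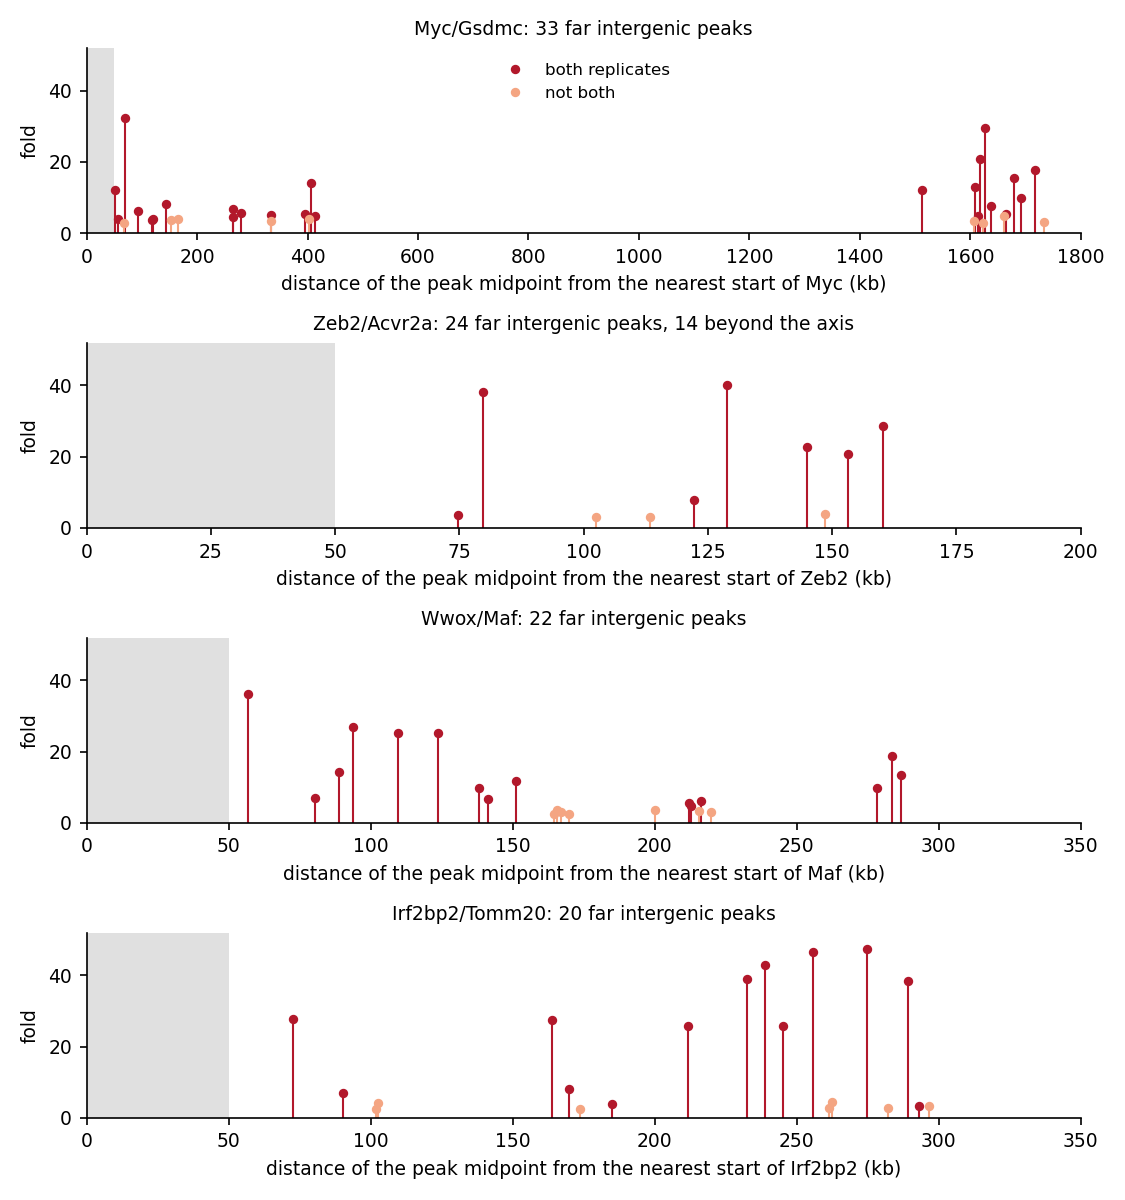
Far intergenic peaks in 4 intervals, by distance of the midpoint from the nearest start of Myc, Zeb2, Maf or Irf2bp2 (x, kb) and fold in the replicated list (y); dark points are overlapped by a peak of both replicates, and the grey band is the 50 kb that the rule leaves out. Myc has 2 sets 1098.3 kb apart, Zeb2 has 10 members within 200 kb, with 14 beyond the axis, and the Irf2bp2 members reach folds of 47.40.

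The 20 members with the highest fold ranked between 14 and 299 in the whole list, and each was overlapped by a peak of both replicates. The first, between Ctnna3, an alpha-catenin of cell adhesion, and Reep3, which shapes the endoplasmic reticulum, had a fold of 54.54, and its replicate folds were 50.07 and 50.44 (chr10:66848169-66855437). It lay 182.8 kb from Reep3, whose start had a fold of 11.04, and 3347.8 kb from the start of Ctnna3, which had no peak at a start. The next, near the middle of the stretch between Ccnd1, the gene of cyclin D1, and the lysosomal channel gene Tpcn2, had a fold of 53.97 (49.04 and 52.15 in replicates 1 and 2) and was 172.2 and 171.9 kb from them. Both of those genes had acetylated starts, with folds of 19.85 and 33.95. The nearest start of all was that of 1810010D01Rik, at 96.02 kb.

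Among the other neighbours of these 20, Cdk6, a kinase of the G1 phase, had a member of fold 41.28 at 144.1 kb, near the first bases of chromosome 5, where no gene lies on the other side. Bcl2l11, the gene of the apoptosis inducer BIM, had one of 48.98 at 211.1 kb. Dusp6, a phosphatase of ERK kinases, had one of 42.90 at 197.5 kb. Klf6, a zinc-finger factor, had one of 46.66 at 57.7 kb, Irf2 one of 42.49 at 96.6 kb, and Rbpj, the factor of Notch signalling, one of 41.06 at 63.0 kb. Jun, a component of AP-1, had 2 of the 20, with folds of 41.28 and 40.44 at 142.2 and 162.3 kb. The interval between Irf2bp2 and Tomm20 had 3, with folds of 47.40, 46.47 and 42.97.

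The rest of the 20 stood between A430033K04Rik and Fam20c (47.92), Lpp and Tprg (46.66), Arf6 and Vcpkmt (44.80), Tpra1 and Plxna1 (43.88), Haao and Zfp36l2 (43.69), Nid1 and Lyst (41.09), and Chd2 and Fam174b (40.91). The one between Lpp and Tprg was the widest of all members, 15754 bp, and lay 231.2 kb from a start of Tprg, which had no peak, and 333.7 kb from one of Lpp, which had a fold of 11.41. Arf6 directs membrane traffic at the cell surface and Lyst the traffic of lysosomes. By RefSeq mRNA starts, 18 of the 20 also meet the rule. The exceptions were the members of Irf2/Enpp6 and Arf6/Vcpkmt, which lie 49.13 and 48.65 kb from a RefSeq start.

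Most members had an acetylated gene as a neighbour. On both sides the flanking gene had a replicated peak within 1 kb of a start for 1040 members (34.9%), on 1 side for 1530 (51.4%) and on neither for 407 (13.7%). At least 1 flank was acetylated for 86.3% (85.0 to 87.5%), against 88.1% (87.2 to 89.0%) of intergenic peaks 2.5 to 50 kb from a start. Of all bases that meet the rule, 49.5% had at least 1 acetylated flanking gene, and 8.11% had both. Members per Mb numbered 11.9 between genes that were both acetylated, 3.44 with 1 and 0.751 with none. The 1522 genes that flank a member, 6.94% of all protein-coding genes, were acetylated at a start in 830 cases (54.5%), against 43.0% of all 21938 protein-coding genes.

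The nearest start was not always the acetylated one. The gene of the nearest start had a peak at a start for 67.6% of members, against 71.8% of the intergenic peaks nearer to genes. The distance from a member to the nearest start of any acetylated gene had a median of 133 kb and quartiles of 80.0 and 253 kb. It was within 200 kb for 2040 members (68.5%) and within 500 kb for 2712 (91.1%). Members with acetylated genes on both sides had a median fold of 5.85, those with 1 had 5.57 and those with none 5.10, and both replicates supported 72.5%, 70.8% and 66.1% of them.

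Some members with no acetylated gene on either side were among the strong ones. The highest 6 of these, which were singled out after their values were seen, began with the peak between Unc5b, a netrin receptor, and Pcbd1 (chr10:60931140-60935250). Its fold was 37.83, with 36.42 in replicate 1 and 37.96 in replicate 2, and the nearest acetylated start was that of Slc29a3 at 180.4 kb. The peak between Npy2r and Rbm46 had a fold of 34.78 (33.38 and 33.35), that between Pdzrn3 and Cntn3 31.08 (27.88 and 29.83), and that between Gm11361 and Sox4 30.12 (26.52 and 29.64). The nearest acetylated starts to these were 261.4, 703.0 and 857.3 kb away, at Plrg1, Ppp4r2 and Cdkal1. The peaks of Kcnrg/Dleu7 and Zbtb10/Zfp704 followed with 29.68 and 27.46. The nearest acetylated start to Kcnrg/Dleu7, that of Rnaseh2b at 321.1 kb, lay next to the start of Dleu7 at 321.5 kb.

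Of the 4 gene lists, that of macrophage regulators had the largest share of genes beside members. Most of its 60 genes encode transcription factors, but it also holds the co-repressor Irf2bp2, the Id inhibitors and Zfp36l2, the mRNA decay factor. Of the 60, 26 (43.3%) flanked at least 1 member. An acetylated start was found for 25 of the 26, and for 55 of all 60, so the flanking genes were close to the list as a whole in this. The exception among the 26 was Bach2, with 3 members and a highest fold of 9.74. Of 40 macrophage identity genes 4 did (10.0%), of 40 inflammatory genes 5 (12.5%), and of 42 genes of other lineages 3 (7.14%), where 6.94% of all protein-coding genes did. Genes beside gene-poor stretches can flank a member and others cannot, and 40 of the 60 regulators lay beside a stretch between genes with bases that meet the rule. Of these 40, 26 (65.0%) had a member there, beside 4 of 15 identity genes (26.7%), 5 of 8 inflammatory genes (62.5%), 3 of 15 genes of other lineages (20.0%) and 1519 of 5833 of all genes (26.0%). The lists were drawn up by hand and with earlier results of these data known, so these shares are descriptions.

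By highest member, the first 8 of the regulators were Irf2bp2 (47.40), Klf6 (46.66), Zfp36l2 (43.69), Jun (41.28), Id2 (40.35), Zeb2 (40.17), Maf (36.27) and Runx1 (32.84). Runx1, a factor of blood formation, had 6 members, the highest 204.9 kb from a start at chr16:93027344-93034741, with 30.46 and 31.17 in replicates 1 and 2. Counting both sides of a gene, Myc had 33 members, Zeb2 and Maf 24 each, Klf6 23, and Irf2bp2 and Klf4 22 each. Cebpb, a C/EBP factor that was named here after its values were seen, had 14 members with a highest fold of 30.06 at 71.8 kb, while the peak at its own start had a fold of 4.36.

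Among the identity genes, Abca1, which exports cholesterol, had 13 members with a highest fold of 36.18 at 194.1 kb (32.87 and 34.02 in replicates 1 and 2). Lpl, the gene of lipoprotein lipase, had 7 with a highest fold of 32.56 at 128.7 kb, Ptprc, the gene of CD45, had 5 with 14.38 at 275.7 kb, and Cd9 had 1 with a fold of 2.21 that neither replicate supported. The identity genes Csf1r, Itgam and Cd68, among the other 36, flanked none. Of the inflammatory genes, Tnfaip3, an inhibitor of NF-kB, had 7 with a highest fold of 24.20 at 69.1 kb, and Nfkbiz had 10 with 12.09 at 74.8 kb. Il6 had 6 members with a highest fold of 5.29 at 167.5 kb, Ptgs2 had 1 with 5.10, and neither gene had a peak at a start in these unstimulated cells. Lif had 1 with 3.06, which neither replicate supported.

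The genes of other lineages with members were Ebf1, Sox9 and Epcam, none of them acetylated at a start. Ebf1, a B cell factor, had 2 members with a highest fold of 16.42 that lay 1135.5 kb from it, on the side of Clint1. Epcam, an epithelial adhesion gene, had 2 with 9.46 at 104.3 kb, and Sox9 had 5 with 7.05 at 390.6 kb.

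Noncoding genes lay under many of the members. At least 1 bp of 810 members (27.2%, 25.6 to 28.8%) overlapped a gene that is not protein-coding, against 18.2% (17.2 to 19.3%) of intergenic peaks 2.5 to 50 kb from a start and 13.4% of the whole list. Noncoding genes cover 11.1% of the bases that meet the rule. A share of bases is better set beside midpoints than whole peaks, and 24.4% of members had their midpoint inside a noncoding gene. Most overlaps were with lincRNA genes, which 611 members (20.5%) overlapped, against 509 (9.25%) of the intergenic peaks nearer to genes. For antisense genes the order was the other way, with 30 members (1.01%) against 188 (3.42%). The share of bases was not taken for lincRNA or antisense genes alone, so the part of the annotation in these orders was not tested. A start of a noncoding transcript within 1 kb of the midpoint was found for 255 members (8.57%), against 7.82% of the intergenic peaks nearer to genes, with intervals of 7.61 to 9.63% and 7.14 to 8.55% that overlap. Those 255 had a median fold of 6.68 and 78.8% had both replicates, while the 589 that overlapped a noncoding gene without a start nearby had 5.38 and 69.4%, and the 2133 others 5.57 and 70.1%.

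In all 481 noncoding genes held a member, and some held many. Gm14005 held 17, the largest number, and RefSeq lists the same gene as Morrbid, a noncoding RNA known from mouse myeloid cells to hold down its neighbour Bcl2l11. The highest of the 17 had a fold of 48.98, with 45.08 in replicate 1 and 44.75 in replicate 2 (chr2:128333320-128340972), and the peak at the start of Bcl2l11 had 6.31. Pvt1 held 15, Firre 13, and Lncpint, a noncoding gene induced by p53 and named here for its count, held 11 with a highest fold of 33.77. Gm31718 and A630001O12Rik held the Irf2bp2 members named above, A230028O05Rik the widest member, Gm44204 that of Plxna1, Gm34983 and Gm35035 that of Dusp6, and Gm12708 the higher of those of Jun. Gm36287 and Gm47705 held the highest member of Id2. AC148019.2 held a member of fold 39.98 between Ccdc112 and Fem1c.

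Members overlapped microRNA genes in 6 cases (0.202%), against 17 (0.309%) of the intergenic peaks nearer to genes. Such overlap was thus no more frequent among members than in that class. RefSeq mature sequences were matched for 2 of the microRNA genes that members overlapped. The member between Msn and Vsig4 (chrX:96236935-96245610) covers Mir223, the gene of a microRNA abundant in myeloid cells that restrains granulocyte production. It was 8676 bp wide with a fold of 28.11 (23.51 and 28.15 in the replicates), and lay 52.2 kb from a start of Vsig4. The member between Ppm1h and Mon2 (chr10:122983714-122985792) covers Mirlet7i, of the let-7 family, with a fold of 11.69 (10.32 and 11.73). The mature sequences are printed 5′ to 3′ with the seed, bases 2 to 8, in capitals, because it is the part that pairs with target messenger RNAs. The 4 seeds differ from each other.
mmu-miR-223-3p: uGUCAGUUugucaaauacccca
mmu-miR-223-5p: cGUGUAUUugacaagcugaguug
mmu-let-7i-3p: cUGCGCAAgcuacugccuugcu
mmu-let-7i-5p: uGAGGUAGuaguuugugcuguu

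The antigen receptor loci were looked at after their values were seen. There the rule takes in peaks that lie among gene segments, since variable segments are not annotated as protein-coding genes. Of the members, 15 overlapped immunoglobulin heavy chain variable segments and 6 overlapped T cell receptor alpha variable segments. Together these were 21 members (0.705%), against 0.0182% of intergenic peaks 2.5 to 50 kb from a start and 0.0669% of the whole list. The interval between Adam6a and Zfp386, which spans the heavy chain variable segments, held 19 members in 2501.3 kb (7.60 per Mb), 11 with both replicates. Its highest had a fold of 27.09, with 25.64 in replicate 1 and 24.63 in replicate 2 (chr12:115311423-115313300). All 4 B cell markers lacked a peak at a start.

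The DNA of members was searched for 9 words bound by factors of the lineage or common in the genome, on both strands, in the 300 bases around the midpoint. The words were GAGGAAGT (PU.1), TGANTCA (AP-1), TTNNGCAA (C/EBP), TGTGGTT (RUNX), GAAANNGAA (IRF), GGGANTTCC (NF-kB), CACGTG (E-box), CCANNAGGG (CTCF) and AGGTCAAAG (nuclear receptors), with N for any base. No word contains another, but matches of different words may share bases. A match is a string of letters and not a bound site. Of the member windows 1091 held 1 of the words, 407 held 2, 69 held 3 and 9 held 4, while 1401 (47.1%) held none.

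Of the 9 words, the PU.1 word had the largest ratio of members to genome. It was in 196 members, 6.58% (5.75 to 7.53%), against 6.58% of intergenic peaks 2.5 to 50 kb from a start, 2.86% (2.57 to 3.19%) of promoter peaks, and 1.80% of all 300-base tiles of the genome that meet the rule, a ratio of 3.65 to those tiles. The AP-1 word was in 16.02% (14.7 to 17.4%), against 14.7% (13.8 to 15.7%) of the nearer intergenic peaks, 6.85% of promoter peaks and 8.96% of tiles. The C/EBP word was in 16.9% (15.6 to 18.3%) of members and 13.4% (12.6 to 14.4%) of the nearer intergenic peaks, and in 15.1% of tiles. The RUNX word was in 8.83% of members and 6.42% of tiles, the E-box in 4.70% and 2.25%, the NF-kB word in 1.34% and 0.663%, and the nuclear receptor word in 0.605% and 0.364%. The CTCF word was in 4.23% (3.57 to 5.02%) of members, fewer than the 5.76% (5.18 to 6.41%) of the nearer intergenic peaks, and in 2.98% of tiles. The IRF word was in 12.9% of members and 13.0% of tiles.

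Base composition differs between the peaks and the genome. Member windows had a mean GC content of 46.0% and a mean of 16.8% repeat-masked bases, against 39.9% and 43.1% in all bases that meet the rule. The part of composition and repeats in the ratios was not tested. Within members, the upper 50% of the list by fold held the PU.1 word in 7.13%, against 6.14% in the lower, and the AP-1 word in 17.9% against 14.5%.

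Around the summit, matches to the PU.1 word were most frequent some way to either side and not at the summit itself. Within 100 bases of the summit the PU.1 word had 42 matches over all members, or 0.0705 per kb (exact Poisson interval 0.0508 to 0.0954), close to the 0.0624 per kb of all bases that meet the rule. At 200 to 300 bases it had 250 matches, 0.420 per kb (0.369 to 0.475), and at 900 to 1000 bases 30 matches, 0.0504 per kb. The 2 sides were alike, with 0.403 per kb on the left and 0.437 on the right at 200 to 300 bases. Windows centred on the summit therefore held the PU.1 word in 3.16% of members, and those centred on the midpoint in 6.58%.

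The AP-1 word followed the same course, with 0.388 per kb within 100 bases of the summit, 0.826 (0.755 to 0.903) at 200 to 300 bases and 0.376 at 900 to 1000, against 0.322 in all bases that meet the rule. The C/EBP word had 0.700 per kb at 200 to 300 bases and 0.507 within 100 bases of the summit, and the RUNX word 0.398 and 0.262. Intergenic peaks 2.5 to 50 kb from a start had a like course, with 0.363 per kb of the PU.1 word at 200 to 300 bases (0.328 to 0.400) and 0.0963 within 100 bases, and promoter peaks 0.123 and 0.0588. The pattern was looked for after the lower share at summits was seen.

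**Figure D5:**
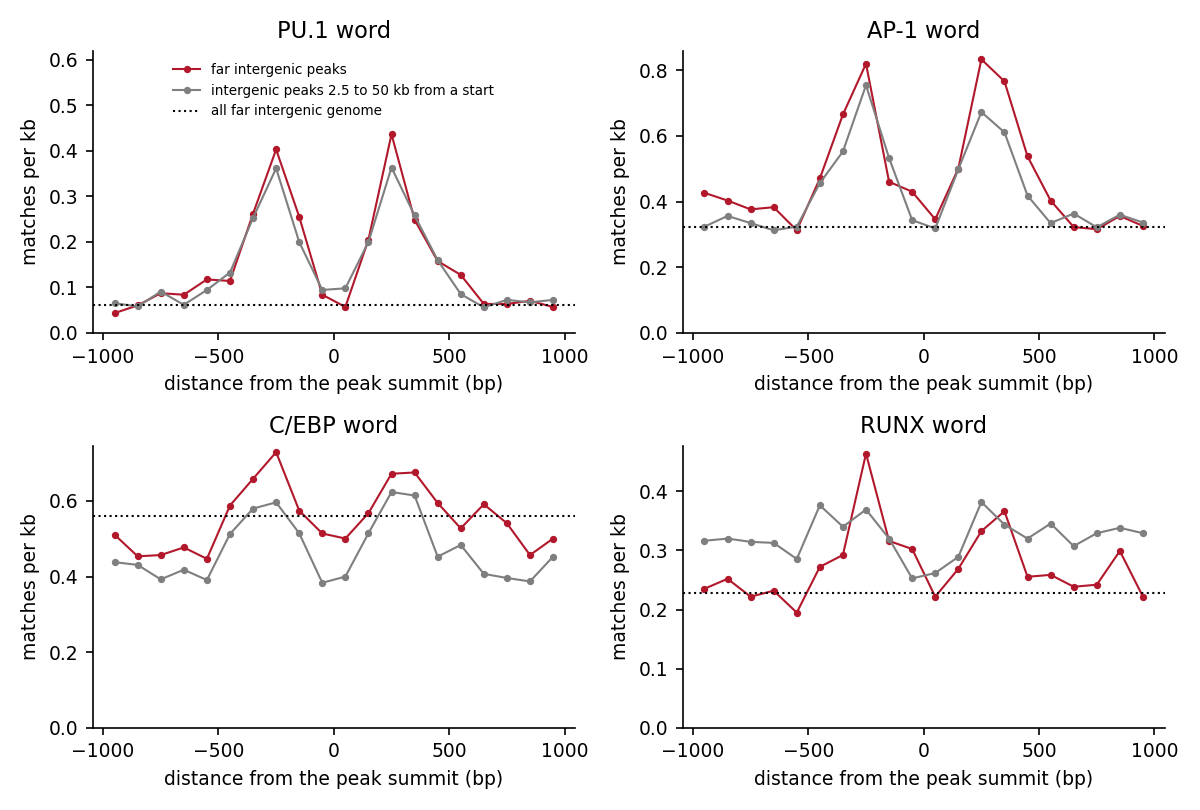
Matches per kb to 4 DNA words by distance from the peak summit (x, 100-base steps, negative to the left on the plus strand, bp; y, matches per kb), for far intergenic peaks and for intergenic peaks 2.5 to 50 kb from a start; the dotted line is the rate over all bases that meet the rule. The PU.1 and AP-1 words are near that line at the summit and highest 200 to 300 bases to either side, where the PU.1 word has 0.403 per kb on the left and 0.437 on the right in far intergenic peaks.

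The 50 kb boundary cuts through a continuous range of distances. Just inside the rule, at 50.03 kb from a start each, were peaks between Spag9 and Tob1, Dst and Ccdc115, and Hunk and Mis18a, with folds of 23.38, 29.78 and 18.55. Just outside were peaks between Sipa1l2 and Map10, Ugcg and Susd1, and Olfm1 and Ppp1r26, at 49.98, 49.94 and 49.91 kb, with folds of 4.17, 25.55 and 9.0. All 6 were overlapped by peaks of both replicates. By RefSeq genes and mRNA starts in place of GENCODE, 2808 members (94.3%) meet the rule as well, 63 (2.12%) lie inside a RefSeq protein-coding gene and 106 (3.56%) are outside one but within 50 kb of an mRNA start. Trerf1 holds 11 of the 63, as GENCODE M21 lists it as noncoding and RefSeq as protein-coding.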

How the data were processed

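H3K27ac ChIP-seq peaks of 2 replicates were used, in 4 lists on mm10: the replicated and the pooled list, which the authors made from both libraries together, and 1 list for each replicate, per the file headers of the descriptions deposited with them. The fold (ratio over control or background), the −log10 q-value and the summit offset are the authors' values in the deposited lists. The aligner, peak caller, thresholds and read depth are not given in the sources used here. Peaks were placed on GENCODE M21 with Python 3.11.15, pandas 2.3.3, numpy 2.4.6 and scipy 1.17.1, and sequence came from RefSeq GRCm38.p6. A start is the start of any transcript typed protein-coding, the class of nearer intergenic peaks runs from 2.5 to 50 kb, overlap means at least 1 bp, and intervals of shares are 95% Wilson intervals that cover counting error only. With 1 group there was no contrast, so no test was run and no p-value is given. The code was tested on simulated data.

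The members and gene lists were chosen with earlier results of these data known. Named genes flank the 20 highest members, the 10 fullest intervals, the 5 longest clusters or the 3 peaks on each side of 50 kb, hold the 10 highest members in noncoding genes, or are up to 8 flanking genes of a list. All others were chosen after their values were seen: the most remote, lowest and microRNA members, members with no acetylated flank, genes of antigen receptor loci, noncoding genes with many members, further clusters and intervals, and Cebpb and Bach2. Alternatives varied the distance, starts, annotation, joining distance, overlap, promoter window, q-value, noncoding classes and DNA window, and used each replicate alone. Of these, the starts of every transcript of a protein-coding gene, the RefSeq annotation and windows at the summit were added after seeing the data.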

Additional observations from a re-analysis of the deposited data

How the results depend on the processing

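Read depth limits which weak regions were called, and the replicates share a donor entry. Of 83 alternatives to the 17 main values, 44 left the value within a set bound and 39 moved it beyond. For shares the bound was the counting interval, for the number of members 1.5 times either way, and for the median width the replicate spread. The cause was not tested beyond what each setting changes by construction. With a bound of 25 kb the rule gave 4621 peaks (14.1% of the list), and with 100 kb 1549 (4.71%); with starts of every transcript of a coding gene the share was 8.51%. With replicate 1 or 2 left out, the far intergenic share of the remaining list was 8.61 to 8.77%, the clustered share 62.4 to 65.0%, the share in the upper 50% 45.9 to 46.1%, the median width 949 to 1037.5 bp, and the number of peaks 2528 to 2590. Support by both replicates was 62.2% with 50% of both peaks overlapping and 74.7% at a −log10 q of at least 5. The clustered share was 52.9% when joined within 5 kb, 77.5% within 25 kb and 65.9% when joined to peaks of any class. At least 1 flank was acetylated for 87.6% with a promoter window of 2.5 kb, 83.3% with 500 bp and 82.1% with a peak of each replicate required. Noncoding overlap was 24.4% by midpoint and 25.5% for long noncoding genes.

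In windows of 200 bases the shares were 4.40% (PU.1), 11.4% (AP-1), 11.8% (C/EBP), 6.08% (RUNX), 8.43% (IRF), 0.840% (NF-kB), 3.16% (E-box), 3.02% (CTCF) and 0.302% (nuclear receptors). In windows of 500 bases they were 10.5% (PU.1), 24.7% (AP-1), 25.5% (C/EBP), 14.6% (RUNX), 21.6% (IRF), 2.45% (NF-kB), 7.93% (E-box) and 6.82% (CTCF). Centred on the summit they were 3.16% (PU.1), 11.1% (AP-1), 13.8% (C/EBP), 7.76% (RUNX) and 3.73% (E-box). Of 135 alternatives to 35 values of single members and intervals, 33 moved, all of them with 1 replicate left out. Among the unmoved were the folds of the 20 highest members in the pooled list. These were the same values as in the replicated list and so no independent check. Of the interval counts only that of Id2/Rnf144a changed by over 1.5 times, to 12 without replicate 1, against 19. No paired analysis was possible because the 2 replicates form 1 group with nothing to pair them against.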

Other observations

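Further clusters with many members lay beside other genes. Between Bod1 and Cpeb4, which encodes a protein that binds the tails of messenger RNAs, 11 members lay in 39.00 kb over the noncoding gene D630024D03Rik, 10 of them with both replicates and with a highest fold of 21.99 (21.80 in replicate 1 and 20.95 in replicate 2). Between Cebpb and Ptpn1, a tyrosine phosphatase gene, 10 members covered 58.8% of 38.95 kb, with a highest fold of 30.06. Between Cd83, a surface marker of activated antigen-presenting cells, and Jarid2, 8 members lay in 29.35 kb with a highest fold of 23.48. These clusters, and the intervals and members that follow, were picked after their values were seen.

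Intervals outside the 10 fullest included one between St3gal1, a sialyltransferase gene, and Zfat, with 19 members in 906.9 kb (20.95 per Mb) and a highest fold of 21.24. Another lay between the adhesion receptor genes Adgrl2 and Adgrl4, with 18 members in 2447.3 kb (7.35 per Mb) and a highest fold of 17.63. The lowest members by fold were those of Dhrs3/Vps13d (1.87), Stpg2/Pdha2 (1.96) and Ppp1r3b/Eri1 (1.99), and no peak of replicate 2 overlapped any of the 3.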
